A study of Homo sapiens with 2 samples.

Results

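Snail (gene SNAI1) is a short-lived transcription factor that represses epithelial genes, and 10 genes whose products set its turnover or its place in the cell are described here. They were chosen by name as parts of this pathway, with earlier results of these data known, and each was found by its Ensembl identifier in GENCODE release 44 among the 58735 genes of the count tables. The RNA came from MCF10a-Snail-ER cells, a derivative of the non-tumorigenic human mammary epithelial line MCF10a that stably expresses Snail fused to the estrogen receptor. Both libraries were from cells treated with tamoxifen at 100 nM for 1 day, which switches the fusion on and starts an epithelial-to-mesenchymal transition. Polyadenylated RNA was sequenced as 1 Nanopore direct RNA library, in which native strands are read, and as 1 Illumina library made by the TruSeq stranded mRNA protocol from fragments that are copied and amplified. There was no untreated library, so the effect of Snail activation on these genes was not measured. The comparison open to the data is between the libraries.

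Snail is marked for destruction by phosphorylation followed by ubiquitination. Casein kinase 1 epsilon (CSNK1E) can prime it for glycogen synthase kinase 3 beta (GSK3B), whose phosphorylation creates the site recognised by the F-box protein beta-TrCP (BTRC). F-box proteins are the substrate-binding parts of SCF ubiquitin ligases. Other F-box proteins (FBXL14, FBXO11, FBXL5) reach Snail by other routes. The kinases PAK1 and LATS2 phosphorylate Snail at other residues and favour its stay in the nucleus. COPS2, a subunit of the COP9 signalosome, and CTDSP1, a small C-terminal domain phosphatase that removes phosphates from Snail, act to keep the protein. These genes act on the protein, and the data here are RNA counts.

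The libraries differed 476-fold in depth, with 403235 Nanopore and 191741714 Illumina counts in total. Counts were scaled by the library total to CPM, the usual unit of depth-scaled counts. A single count stood for 2.48 CPM by Nanopore and 0.00522 CPM in the Illumina table, and 3 counts, taken as the limit that a count of 0 allows, for 7.44 and 0.0156 CPM. No value has a replicate, so each interval is a 95% interval for counting error alone, and amplified reads do not each stand for a separate molecule. In bulk RNA a difference in cells cannot be told apart from a difference in RNA per cell. Of 8 basal mammary epithelial markers fixed for the check of the cell type, all 8 were detected in each library, and summed to 3509 CPM for Nanopore and 3951 CPM for Illumina. The sums were 27.3 and 34.0 CPM for 7 fibroblast markers, 44.6 and 56.1 CPM for 5 immune markers, and 2.48 and 6.61 CPM for 4 endothelial markers. The pan-leukocyte marker PTPRC and the T-cell marker CD3E had no Nanopore count. The immune sum by Nanopore came from CD68 (13 counts) and CD14 (5 counts), and the fibroblast marker DCN had 10 Nanopore counts.

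All 10 regulators were detected by both platforms, and all 10 passed the filter, which asked for 5 CPM or more on average over the libraries. Together they held 160 Nanopore counts, or 396.8 CPM (exact Poisson interval 337.7 to 463.3), and 107714 Illumina counts, or 561.8 CPM (558.4 to 565.1). Single genes ranged from 6 to 36 counts by Nanopore and from 555 to 27902 by Illumina. These are low numbers by Nanopore, and they limit every comparison below. For scale, SNAI1, whose counts can include the fusion construct, had 286 Nanopore counts, 7.94 times those of the highest regulator. On the Illumina scale per length used below, with union length, it stood at 24.6 times the highest regulator.

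Levels were compared between genes on the Illumina scale per length (TPM), with the union of all annotated exons as the length. CSNK1E was highest at 55.5 TPM (exact Poisson interval 54.9 to 56.2), followed by CTDSP1 at 40.3 (39.7 to 41.0) and COPS2 at 30.6 (30.1 to 31.0). FBXL5 at 22.6 TPM (22.1 to 23.2) and PAK1 at 22.5 TPM (22.03 to 22.93) had overlapping intervals. FBXO11 stood at 11.4 TPM (11.2 to 11.6). BTRC at 10.6 TPM (10.3 to 10.9) and GSK3B at 10.5 TPM (10.3 to 10.7) also had overlapping intervals, above LATS2 at 9.54 TPM (9.24 to 9.85). FBXL14 was lowest at 2.90 TPM (2.66 to 3.15). The F-box partner of the GSK3B route was thus at the level of GSK3B itself, and the priming kinase CSNK1E was above both. With the length of the Ensembl canonical transcript in place of the union, CSNK1E (80.1 TPM), CTDSP1 (43.4 TPM) and FBXL14 (1.78 TPM) kept the highest, the second and the lowest place. GSK3B (13.9 TPM) then stood above BTRC (6.63 TPM), so the closeness of these levels holds for union length only.

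In a direct RNA library each read is 1 strand, so the Nanopore counts are given without division by length. CSNK1E had the most (36), then COPS2 (32), FBXO11 (27) and FBXL5 (19). GSK3B and LATS2 had 9 each, CTDSP1 had 8, BTRC and FBXL14 had 7 each, and PAK1 had 6. Intervals of neighbours in this order overlapped throughout. The interval of CSNK1E (62.5 to 123.6 CPM) did not overlap that of GSK3B (10.2 to 42.4 CPM). CTDSP1 was the second highest of the 10 on the Illumina TPM scale and the seventh by Nanopore counts. Across the 10 genes, Spearman's rho between Nanopore CPM and Illumina TPM was 0.49 with union length and 0.36 with canonical length, which is a description over 10 genes of the same pair of libraries.

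**Figure D1:**
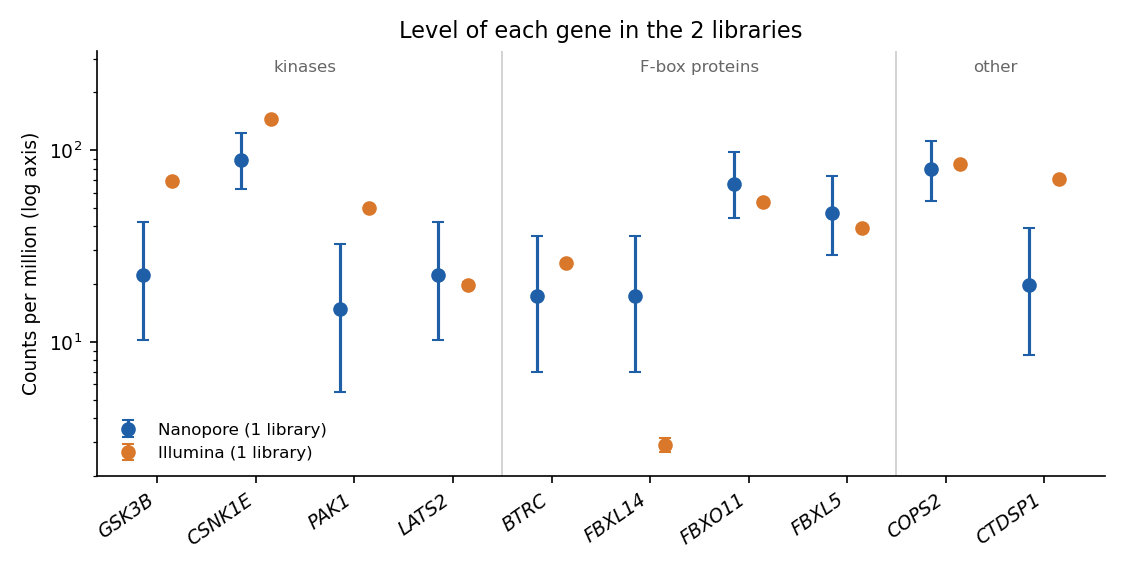
Level of each regulator in CPM (log axis) in the Nanopore library (blue) and the Illumina library (orange), 1 library each; bars are 95% exact Poisson intervals and cover counting error only. GSK3B, PAK1 and CTDSP1 lie at 14.9 to 22.3 CPM by Nanopore against 49.96 to 70.7 CPM by Illumina, and FBXL14 lies the other way, at 17.4 against 2.89 CPM.

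Each gene was then compared between the libraries. A two-sided exact conditional binomial test was run on all 12414 genes that passed this filter, and p-values were adjusted over all of them by the Benjamini-Hochberg method. A call says that these 2 libraries differ, and nothing of platforms in general or of a condition. Ratios are log2 of Nanopore CPM + 1 over Illumina CPM + 1, which understates differences of rare genes, and fold values are plain CPM ratios. At an adjusted p under 0.05, 1 of the 10 regulators was higher by Nanopore, where 20.2% of all tested genes were. Another 4 were lower by Nanopore, where 27.2% of all tested genes were. Among the 10498 tested protein-coding genes, the kind to which all 10 belong, those shares were 11.8% and 30.9%. Past 2-fold there was 1 regulator higher (19.2% of tested genes) and 3 lower (30.2%), and past 4-fold 1 higher (12.9%) and 0 lower (8.14%). The median log2 ratio of the 10 was −0.32, against −0.42 for all tested genes and −0.58 for tested protein-coding genes. In number of calls and in median the set lay close to the background. The differences are therefore given gene by gene.

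Of the 4 kinases, 3 were called lower by Nanopore on the CPM scale, where 30.9% of tested protein-coding genes were called lower. With union length 0 of the 10 regulators were called lower. GSK3B (ENSG00000082701, chromosome 3, 119821321 to 120094994, minus strand, hg38) had 9 Nanopore counts, 22.3 CPM, and 13311 Illumina counts, 69.4 CPM. At the Illumina share, 28.0 Nanopore counts would be expected, and 17 to 41 would not have been called. It was 3.11-fold higher by Illumina (exact interval 1.64 to 6.80), a log2 ratio of −1.59 (exact binomial test, Benjamini-Hochberg adjusted p = 0.000235). This kinase, which also acts in glycogen metabolism and Wnt signalling, had the longest canonical transcript of the 10, at 7743 bases.

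PAK1 (ENSG00000149269, chromosome 11, 77322017 to 77474635, minus strand), an effector of the small GTPases Rac and Cdc42, had 6 Nanopore counts (14.9 CPM) and 9580 Illumina counts (49.96 CPM). With 20.1 counts expected, it was 3.36-fold higher by Illumina (1.54 to 9.15), a log2 ratio of −1.68 (exact binomial test, Benjamini-Hochberg adjusted p = 0.00154). CSNK1E (ENSG00000213923, chromosome 22, 38290691 to 38318084, minus strand) had 36 counts (89.3 CPM) where 58.7 were expected, and 27902 Illumina counts (145.5 CPM). Its difference was the smallest of those called, 1.63-fold (1.18 to 2.33), with a log2 ratio of −0.70 (exact binomial test, Benjamini-Hochberg adjusted p = 0.00579). LATS2 (ENSG00000150457, chromosome 13, 20973036 to 21061586, minus strand), a core kinase of the Hippo pathway, had 9 counts (22.3 CPM) with 7.97 expected and 3790 Illumina counts (19.8 CPM). Its log2 ratio was 0.17 (exact binomial test, Benjamini-Hochberg adjusted p = 0.902), and its CPM ratio had an interval from 0.516 to 2.15. A value 2-fold higher by Nanopore is thus within counting error, and one 2-fold lower lies just outside the interval.

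Of the 4 F-box genes, only FBXL14 was called on the CPM scale. Among tested protein-coding genes 11.8% were called higher and 30.9% lower. FBXL14 (ENSG00000171823, chromosome 12, 1565993 to 1594581, minus strand), the mammalian relative of Xenopus Partner of paired, had 7 Nanopore counts (17.4 CPM) where 1.17 were expected. Its 555 Illumina counts (2.89 CPM) were the fewest of the set. It was 5.997-fold higher by Nanopore (2.40 to 12.4), a log2 ratio of 2.24 (exact binomial test, Benjamini-Hochberg adjusted p = 0.00147), and no more than 4 counts would have gone uncalled. This ratio lay above that of 88.2% of all tested genes and 95.8% of tested protein-coding genes. The call rests on 7 reads. At 2.89 CPM by Illumina, the gene passed the filter of 5 CPM on average only through its Nanopore counts. With 1.17 counts expected, even 0 counts would have gone uncalled, so a call in the other direction was not possible.

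The other F-box genes were not called on this scale. FBXO11 (ENSG00000138081, chromosome 2, 47789316 to 47906498, minus strand), which is also known for targeting BCL6 in B cells, had 27 Nanopore counts (67.0 CPM) against 21.6 expected, and 10285 Illumina counts (53.6 CPM). FBXL5 (ENSG00000118564, chromosome 4, 15604381 to 15681679, minus strand), the iron-sensing ligase for the iron regulatory protein IRP2, had 19 counts (47.1 CPM) against 15.9 expected, and 7537 Illumina counts (39.3 CPM). BTRC (ENSG00000166167, chromosome 10, 101354033 to 101557321, plus strand), which also degrades beta-catenin and I-kappa-B, had 7 counts (17.4 CPM) against 10.4 expected, and 4944 Illumina counts (25.8 CPM). Their log2 ratios were 0.31, 0.26 and −0.54, with exact binomial adjusted p-values of 0.414, 0.617 and 0.499 (Benjamini-Hochberg). The intervals of the CPM ratio were 0.822 to 1.82 for FBXO11, 0.721 to 1.87 for FBXL5 and 0.271 to 1.39 for BTRC. A difference of 2-fold in either direction lies outside the first pair of intervals, while BTRC could be 2-fold lower by Nanopore and remain undetected.

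The remaining pair, both protectors of Snail, went apart. COPS2 (ENSG00000166200, chromosome 15, 49106068 to 49155661, minus strand) had 32 Nanopore counts (79.4 CPM) against 34.2 expected, and 16257 Illumina counts (84.8 CPM). At a log2 ratio of −0.09 it was not called (exact binomial test, Benjamini-Hochberg adjusted p = 0.891), and its CPM ratio an interval of 0.640 to 1.32. CTDSP1 (ENSG00000144579, chromosome 2, 218397136 to 218405941, plus strand) had 8 counts (19.8 CPM) against 28.5 expected, and 13553 Illumina counts (70.7 CPM). It was 3.56-fold higher by Illumina (1.81 to 8.25), the lowest log2 ratio of the 10 at −1.78 (exact binomial test, Benjamini-Hochberg adjusted p = 5.5e-05). Its canonical transcript, at 2525 bases, was also the shortest of the 10. Across all 12350 tested genes with a length the ratio fell with canonical length (Spearman's rho −0.48). Over the 10 regulators rho was 0.067 with canonical length and −0.22 with union exonic length. These are descriptions over 10 genes, too few to set against the value of all genes.

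**Figure D2:**
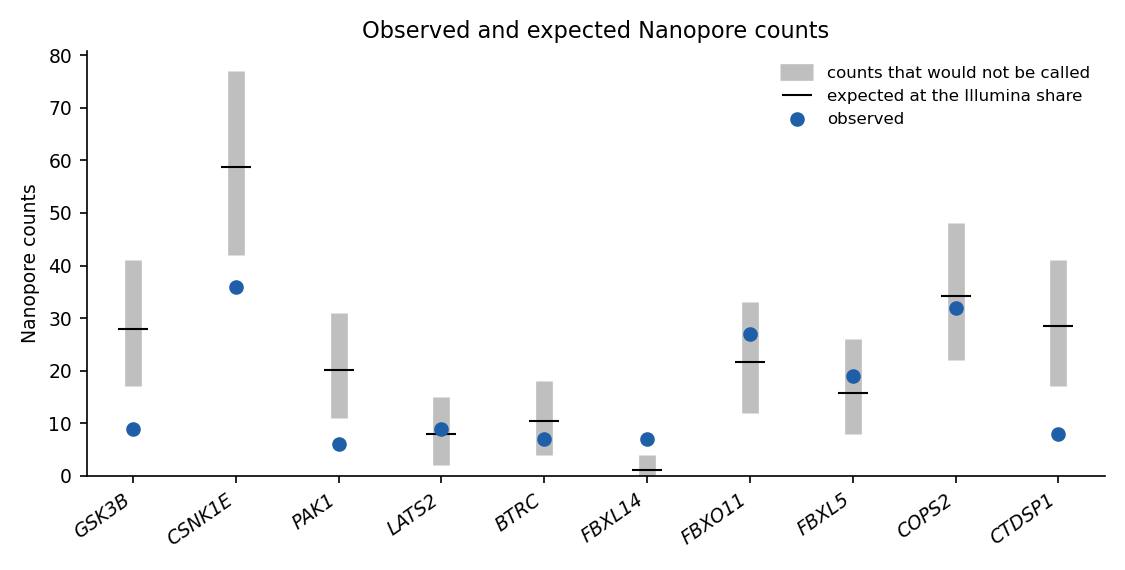
Nanopore counts of each regulator (blue points), the count expected at its Illumina share (black dashes) and the range of counts that would not have been called at an adjusted p under 0.05 (grey bars). GSK3B, CSNK1E, PAK1 and CTDSP1 lie below their bars, FBXL14 with 7 counts lies above its bar, which ends at 4, and the other 5 lie inside.

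Illumina counts grow with transcript length and direct RNA counts need not, so each comparison was repeated with Illumina TPM. This moved the median log2 ratio of all tested genes from −0.42 to 0.42 with union exonic length and to 0.48 with canonical transcript length, and that of the 10 regulators from −0.32 to 1.02 and 1.32. With union length 5 regulators were called higher by Nanopore, against 31.2% of all genes, and 0 lower, against 10.6%. With canonical length 5 were called higher (31.4%) and 1 lower (9.86%). Past 2-fold there were 6 higher and 0 lower with union length (33.2% and 12.8% of all genes), and 6 higher and 1 lower with canonical length (34.8% and 11.1%). The direction of GSK3B, BTRC, COPS2 and CSNK1E was opposite on both TPM scales. For CSNK1E, called lower by CPM, the call itself reversed: with union length it was called higher by Nanopore (log2 ratio 0.68, exact binomial test, Benjamini-Hochberg adjusted p = 0.0256). With canonical length it was at 0.16 and was not called (adjusted p = 0.730 by the same test). As the ratios of all genes shifted too, CSNK1E lay above 40.2% of tested genes by CPM and above 57.9% with union length.

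FBXL14 was the only regulator called in the same direction on all 3 scales. All 3 rest on the same 7 Nanopore counts and the same filter, which the gene passed only through those counts. Its log2 ratio was 2.23 with union length and 2.73 with canonical length, with exact binomial adjusted p-values of 0.0016 and 9.58e-05 (Benjamini-Hochberg). PAK1 and CTDSP1 were the only ones below 0 on all 3 scales. For PAK1 the TPM-based ratios were −0.56 and −0.56, with exact binomial adjusted p-values of 0.572 and 0.583 (Benjamini-Hochberg), so its call was lost. For CTDSP1 they were −0.99 and −1.09, with exact binomial adjusted p-values of 0.0839 and 0.0466 (Benjamini-Hochberg), so its call held with canonical length only. These ratios stood against all-gene medians of 0.42 and 0.48.

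FBXO11, FBXL5 and COPS2 were called higher by Nanopore on both TPM scales. FBXO11 had TPM-based ratios of 2.46 and 1.88, FBXL5 of 1.02 and 1.38, and COPS2 of 1.35 and 1.94. The medians of all tested genes on these scales were 0.42 and 0.48. LATS2, at 1.15 and 1.84, passed with canonical length (exact binomial adjusted p 0.00347, Benjamini-Hochberg) and not with union length (0.0767). GSK3B, with 69 annotated transcripts and a union of 17871 bases against a canonical 7743, turned from −1.59 to 1.02 and 0.65 with exact binomial adjusted p-values of 0.122 and 0.375 (Benjamini-Hochberg). For that kinase, neither TPM-based difference was detectable at this depth.

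**Figure D3:**
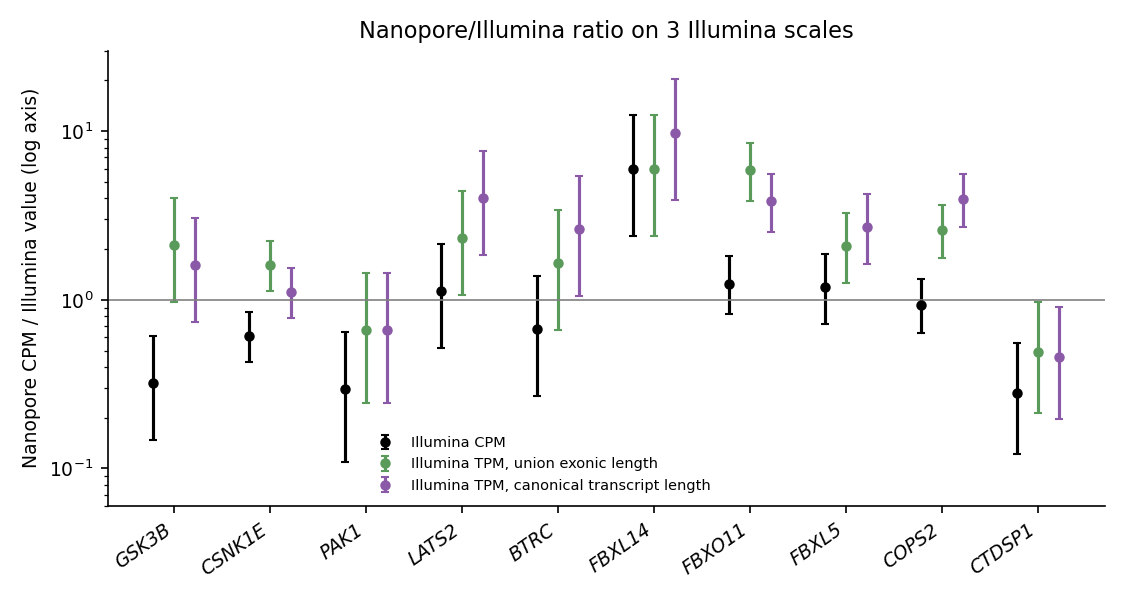
Nanopore CPM divided by the Illumina value of each regulator (log axis), with Illumina as CPM (black), as TPM by union exonic length (green) and as TPM by canonical transcript length (purple); bars are 95% exact conditional intervals for counting error. FBXL14 lies above 1 and PAK1 and CTDSP1 lie below 1 on all 3 scales, and GSK3B and CSNK1E cross from below to above.

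All 10 gene bodies overlap another annotated gene, as do 74.7% of tested protein-coding genes, and 7 of the 10 share exonic bases with one (57.1%). Of the 20 genes that overlap them, 18 are in the tables, 8 share exonic bases, and 6 had a Nanopore count. How reads over several genes were assigned, and whether strand was used, is not given in the sources used here. The counts of the overlapping genes are therefore set beside those of the regulators.

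Among the regulators, CSNK1E shares the largest part of its canonical transcript with a neighbour. The readthrough gene TPTEP2-CSNK1E (ENSG00000283900, chromosome 22, 38291918 to 38398522, same strand) joins upstream exons to the CSNK1E exons and shares 1316 exonic bases, 46.7% of the canonical CSNK1E transcript. All 9 coding segments of CSNK1E, 1248 bases, are coding in the readthrough gene too. A read inside them can come from either. The start of the coding sequence is shown because it lies in such a shared exon, beside the same stretch of the close paralog CSNK1D, with which CSNK1E shares no 50-base word. Both are read 5′ to 3′ from hg38 on the minus strand, CSNK1E at chr22:38314082-38314157 and CSNK1D at chr17:82273306-82273381, and capitals mark the 12 of 76 positions at which they differ.
CSNK1E: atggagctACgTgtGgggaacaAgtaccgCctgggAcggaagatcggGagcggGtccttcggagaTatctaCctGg
CSNK1D: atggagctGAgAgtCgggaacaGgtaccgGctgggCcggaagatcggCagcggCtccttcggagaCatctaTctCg

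TPTEP2-CSNK1E had 29 Nanopore and 10402 Illumina counts. Relative to CSNK1E this was 0.806 by Nanopore (exact interval 0.476 to 1.35) and 0.373 by Illumina (0.364 to 0.381), so the Nanopore counts of the 2 genes were closer to each other. The ratio of the readthrough gene between the libraries was 0.40 on the log2 scale, with an exact binomial adjusted p of 0.261 (Benjamini-Hochberg). CSNK1D, named here after its values were seen because it is the closest relative, had 140 Nanopore counts (347.2 CPM) and 28647 Illumina counts (149.4 CPM). Its log2 ratio was 1.21, opposite in sign to that of CSNK1E, and 3.20 with union length, where CSNK1E was at 0.68.

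FBXO11 meets the mismatch repair gene MSH6 (ENSG00000116062, chromosome 2, 47695530 to 47810063) tail to tail on the opposite strand, with 4022 shared exonic bases and 34.5% of its canonical transcript. MSH6 had 23 Nanopore counts where 69.5 were expected from its 33068 Illumina counts. Its count was 0.852 times that of FBXO11 by Nanopore (exact interval 0.467 to 1.54) and 3.22 times by Illumina (3.14 to 3.29). The Nanopore counts of this pair were thus nearly equal where the Illumina counts were not. The lncRNA gene ENSG00000233230, which shares 200 bases with FBXO11 on the opposite strand, had 2 Nanopore and 82 Illumina counts, 0.0741 of FBXO11 by Nanopore (0.00854 to 0.295) and 0.00797 by Illumina.

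FBXL14 shares no exonic base with another gene in this annotation, but its body lies inside that of WNT5B (ENSG00000111186, chromosome 12, 1529891 to 1647212, opposite strand), a Wnt ligand gene named after its values were seen. WNT5B had 7 Nanopore counts, the same number as FBXL14, where 0.244 were expected from its 116 Illumina counts. Relative to FBXL14 that was 1.00 by Nanopore (exact interval 0.299 to 3.34) and 0.209 by Illumina (0.170 to 0.256). At 0.605 CPM by Illumina, WNT5B also passed the filter of 5 CPM on average only through its Nanopore counts. With 0.244 counts expected, it could not have been called lower. Both genes of this locus were higher by Nanopore, the only direction in which either could be called. Whether the same reads were counted for each was not tested.

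The other overlaps were small or silent. FBXL5 shares 18 bases with the oppositely oriented FAM200B, whose counts were 13 by Nanopore and 3502 by Illumina, 0.684 of FBXL5 by Nanopore (exact interval 0.311 to 1.46) and 0.465 by Illumina. COPS2 shares 6 bases with the galactokinase gene GALK2, which had 5 and 5127 counts, 0.156 of COPS2 by Nanopore (0.0475 to 0.404) and 0.315 by Illumina. In these 2 pairs the Nanopore interval includes the Illumina value. GSK3B-DT (29 bases shared with GSK3B), ENSG00000268635 (966 bases shared with PAK1) and ENSG00000273361 (468 bases shared with CTDSP1) had no Nanopore count and 82, 24 and 51 Illumina counts. The microRNA gene MIR26B, inside CTDSP1 without exonic overlap, was at 0 in both tables. GSK3B, PAK1 and CTDSP1, the 3 regulators more than 2-fold lower by Nanopore, thus had no Nanopore count in any overlapping gene of the tables. The same held for BTRC and LATS2, which were not called by CPM, so this is not particular to the lower genes. For GSK3B, 2 further overlapping genes on the same strand, ENSG00000288662 and ENSG00000288667, were not analysed here. The part of the overlaps in any ratio was not tested.

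**Figure D4:**
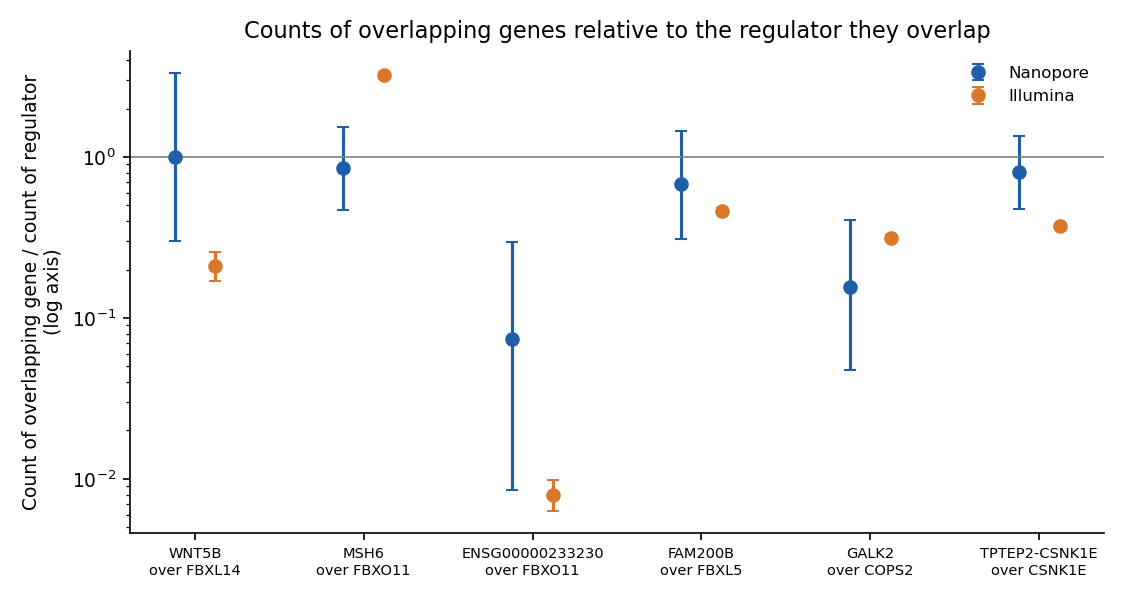
Count of each overlapping gene divided by the count of the regulator it overlaps (log axis), in the Nanopore library (blue) and the Illumina library (orange); bars are 95% exact intervals for counting error. The Nanopore ratios of WNT5B, MSH6, FAM200B and TPTEP2-CSNK1E lie between 0.684 and 1.00, where the Illumina ratios range from 0.209 to 3.22, and those of GALK2 and ENSG00000233230 lie at 0.156 and 0.0741 against 0.315 and 0.00797.

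Shared sequence was small outside these pairs. Of the 50-base words of the canonical transcripts, 45.8% of those of CSNK1E also occur in another gene, all in TPTEP2-CSNK1E, with 33.2% for FBXO11, 14.5% for PAK1 and 0.46% for COPS2. The other 6 regulators had none. None of the 10 had a copy on any of the 261 alternate contigs of hg38, at a minimum of 80% of the canonical transcript aligned and at most 5% divergence.

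A list of 56 further genes of the pathway was examined in the same way, and 52 of them were tested. Called were 3 higher and 36 lower by Nanopore, against the background of 20.2% and 27.2% over all tested genes. Over tested protein-coding genes those shares were 11.8% and 30.9%, and the counts by group below stand against the same shares. The median log2 ratio of the 52 was −0.96, below the −0.42 of all tested genes and the −0.58 of tested protein-coding genes. With union length 13 were called higher and 4 lower, where 31.2% and 10.6% of all tested genes were. The median was then 0.20, below the 0.42 of all tested genes and the 0.32 of tested protein-coding genes. The fall in lower calls from 36 to 4 came with the division by length.

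The SCF core, which joins F-box proteins to the ubiquitin-conjugating enzyme, held 0 of 4 higher and 2 lower, the cullin CUL1 and the ubiquitin-like modifier gene NEDD8. Of 5 other F-box genes, 4 were lower. These were FBXW11, the paralog of BTRC (14 Nanopore and 15838 Illumina counts, log2 ratio −1.23), FBXO31 (−2.26, 2 counts), FBXO45 (−1.59, 4 counts) and FBXO22 (−1.52, 5 counts). BTRC itself was at −0.54 and was not called, and the difference between these paralogs was not tested. Of 5 other ubiquitin ligases, 2 were lower, among them MDM2, the ligase of p53 (−1.72). SPSB3, the substrate receptor of a cullin ligase, was higher, with 36 Nanopore counts (89.3 CPM) and 2125 Illumina counts (11.1 CPM), a log2 ratio of 2.90 (3.08 with union length). Its exons overlap those of another gene.

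Of 9 other subunits of the COP9 signalosome, which removes NEDD8 from cullins, 6 were lower and 1, COPS9, was higher. The isopeptidase subunit COPS5 was at −1.06, COPS7A at −1.21 and COPS7B at −1.31, against −0.09 for COPS2. Among 12 deubiquitinases 9 were tested and 7 were lower, with USP11 at −2.74 (2 counts), USP36 at −2.04 (3 counts), USP9X at −1.67 and USP47 at −1.14. The testis-linked genes USP26 and USP29 were listed at 0 in both libraries.

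Of 12 other kinases 9 were lower and 1, CSNK1D, was higher. The DNA damage kinases ATM (−2.42, 2 counts) and PRKDC (−1.96, 29 counts), the catalytic subunit gene of protein kinase A, PRKACA (−1.71), and CSNK2A1 of casein kinase 2 (−1.71) had the lowest ratios. Both other small phosphatase genes, CTDSP2 (−0.81) and CTDSPL (−0.90), were lower as CTDSP1 was, but with union length they stood at 0.18 and 0.20 against −0.99 for CTDSP1. Of 7 transport and scaffold genes 6 were tested and 4 were lower. Among these were the importin genes KPNB1 (−1.89), IPO7 (−1.49) and TNPO1 (−1.10), of which KPNB1 and IPO7 stood at 0.035 and −0.083 with union length. Several directions turned with that length. CSNK2A1 (1.64), PRKDC (1.41), TNPO1 (1.14) and USP47 (1.12) were then called higher by Nanopore, and ATM (0.93), USP9X (0.67), FBXO22 (0.49) and COPS5 (0.43) stood above 0 without a call. USP11 (−1.86), COPS7A (−1.15), FBXO31 (−0.98), FBXO45 (−0.50), USP36 (−0.37), PRKACA (−0.31), CUL1 (−0.30), FBXW11 (−0.20), COPS7B (−0.18) and MDM2 (−0.13) remained below 0, with a call for COPS7A only among these. With canonical length COPS5 was at −1.32 and was called lower, so its direction turned with union length only. The other genes named here as above 0 with union length were above 0 with canonical length too. COPS9, at 0.61 by CPM, was at −1.26 with canonical length.

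**Figure D5:**
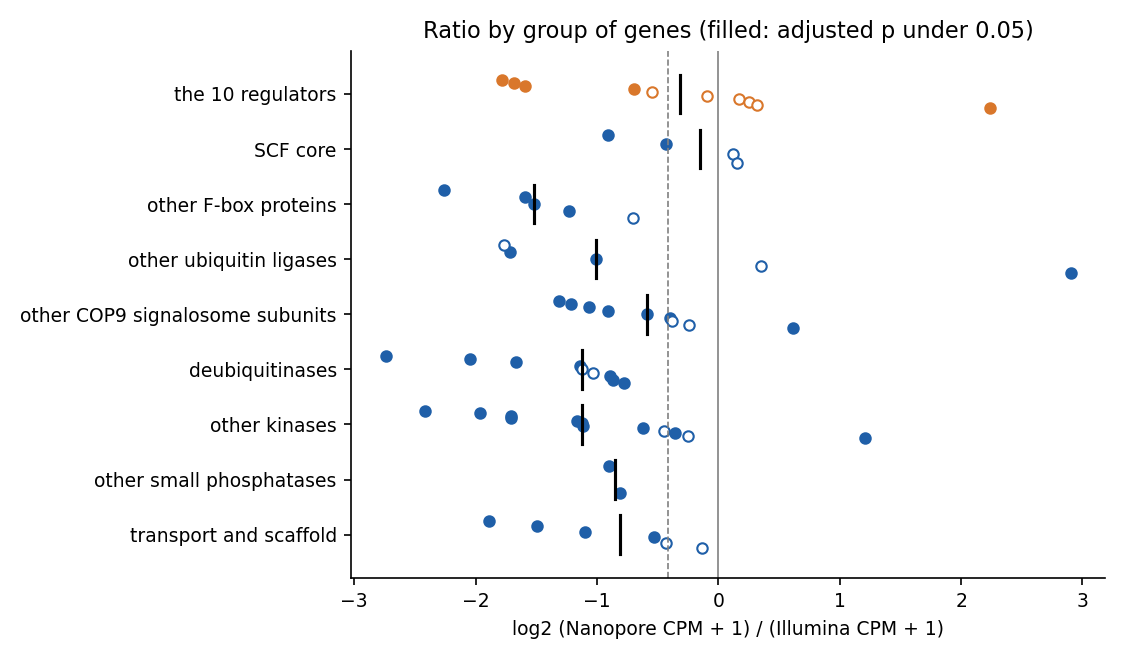
Log2 ratio of Nanopore over Illumina CPM + 1 for the 10 regulators (orange) and the tested genes of 8 other pathway groups (blue); filled points passed an adjusted p under 0.05, black ticks are group medians and the dashed line is the median of all tested genes, −0.42. The medians of the regulators (−0.32) and the SCF core (−0.15) lie right of the dashed line and those of the other 7 groups lie left of it.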

How the data were processed

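The authors deposited whole-number counts per Ensembl gene for each library, without normalization, judged from the values. The submitters' processing notes name minimap2 2.11-r797, HISAT2 2.1.0, featureCounts and hg38. Options, annotation release and any correction of the Nanopore reads, whose column tag has an unexplained suffix, are not given in the sources used here. If Illumina reads were used to correct them, the libraries are not independent. GENCODE release 44 on hg38 gave names, positions and lengths, and matched 58207 of 58735 identifiers. Counts were scaled by library totals (CPM), or for Illumina also by length (TPM). With 1 library per platform no spread can be estimated, so the edgeR quasi-likelihood test could not be run. The exact binomial test was run across all genes averaging 5 CPM or more (pseudocount 1) and was tested on simulated data. edgeR 4.0.16 gave TMM factors. Intervals are exact Poisson or conditional binomial (scipy 1.17.1). Transcripts were aligned to alternate contigs with minimap2 2.31. The rule for named genes took all 10 regulators, genes that share their exons, called pathway genes past 2-fold (at most 4 a group) and SNAI1. Other pathway genes in the text are further called genes, values beside a relative, or genes at 0. The regulators and lists were chosen with earlier results of these data known. Alternatives were other pseudocounts, filters, scalings, lengths and a 4-fold threshold. The shares among protein-coding genes were added after the data were seen. The values of 1 called pathway gene are not reported here.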

Additional observations from a re-analysis of the deposited data

How the results depend on the processing

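Under TMM scaling, pseudocounts of 0.1 and 5 CPM, a mean of at least 1 CPM and no filter, all 10 regulators kept their direction and their side of the threshold. With median-ratio scaling 9 did, and COPS2 turned to 0.032, near 0 on either side. Division by length changed the most. With union exonic length the ratios of GSK3B, BTRC, COPS2 and CSNK1E reversed to 1.02, 0.67, 1.35 and 0.68, the regulators called higher rose to 5 and those called lower fell to 0. Past 2-fold there were then 6 higher and 0 lower, and the median was 1.02. With canonical transcript length the same 4 genes stood at 0.65, 1.27, 1.94 and 0.16, with 5 called higher and 1 lower, 6 and 1 past 2-fold, and a median of 1.32. At 4-fold, 0 regulators were lower. Since every regulator overlaps another gene, the restriction to genes without overlap left none and gave no value. TMM and median-ratio scaling moved all ratios of scaled counts by 0.088 and 0.13 on the log2 scale. At 6 to 36 Nanopore counts, the difference that could go uncalled varied by gene and exceeded 2-fold for the rarer ones. LATS2, with 7.97 counts expected, would have gone uncalled from 2 to 15 counts. BTRC, with 10.4 expected, would have gone uncalled from 4 to 18. CSNK1E was called at 1.63-fold. No replicate could be left out and no paired analysis was possible because each platform has 1 library.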
